A study of Homo sapiens with 6 samples.

Results

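The Rab GTPases are the largest branch of the RAS superfamily and act as membrane identity labels. They were taken as every protein-coding gene in the count table whose symbol is RAB followed by a number and at most 1 letter, which gave 63 of 20042 genes. Of these, 55 had enough reads to be tested and 8 did not.

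A Rab protein is carried to its membrane by a lipid tail, is switched on there by an exchange factor (GEF) that loads GTP, and is switched off by a GTPase-activating protein (GAP). While on, it recruits effectors such as tethers, motors and coat adaptors, so that each Rab marks a step of secretion, endocytosis, recycling or lysosomal delivery. Many Rabs exist as paralogues that arose by gene duplication and share a compartment. In breast cancer cells Rab genes are known for their part in moving growth factor receptors and integrins to and from the cell surface.

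RNA sequencing was performed on MDA-MB-231 cells, an established human cell line from a mesenchymal-like, hormone receptor-negative breast cancer. In 3 cultures the cells were transfected with a control siRNA (siCTRL, genotype label WT), and in the other 3 with an siRNA directed against ERBBride (siRNA-1, genotype label ERBBride knock down). Small interfering RNAs (siRNAs) are short duplexes that direct the breakdown of matching transcripts. Only 1 ERBBride siRNA was used, so that effects of losing the target and effects of that siRNA's own sequence cannot be told apart, and ERBBride itself was not analysed here. Cultures carry biological replicate numbers in the labels, with no word on how they were kept apart, and the p-values measure the spread between these samples, which may be technical.

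Libraries held 12813706 to 15014434 counts. Levels are given as counts per 1000000 of the scaled library (CPM), in which 3 counts correspond to 0.199 to 0.233 CPM. All 5 mesenchymal markers (VIM, CD44, EGFR, CAV1 and AXL) were abundant in every library, with VIM at 1643 to 2711 CPM, and all 5 were lower in siRNA-1. Of the luminal markers, PGR had 0 counts, ESR1 and ESRP1 were at or below 0.205 CPM, CDH1 reached 3.11 CPM and GATA3 reached 12.9 CPM, and the last 2 were lower in siRNA-1. The blood marker PTPRC stayed at or below 0.861 CPM and the endothelial marker VWF at or below 0.349 CPM. PECAM1 lay between 3.68 and 8.39 CPM and CD68 between 126 and 180 CPM. PECAM1 was lower in siRNA-1, and the part of these markers in the results was not tested.

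Rab genes changed in both directions, and at least 2-fold falls outnumbered such rises, as they did among all genes. By edgeR's quasi-likelihood test, with an adjusted p under 0.05 over all 12440 genes tested, 14 of the 55 tested members were higher in siRNA-1, 18 were lower and 23 did not pass. In these bulk samples, fewer cells of a type and less RNA per cell cannot be told apart. The share of members changed was 58.2%, beside 62.5% of all genes tested. Members higher made up 25.5%, beside 31.5% of all genes, and members lower made up 32.7%, beside 31.0%. These shares lie near those of all genes and are no result about the family. Without siCTRL 2, 37 of 55 members passed, 15 higher and 22 lower. The count over all genes rose as well, from 7772 of 12440 to 8635 of 12562 tested. At least 2-fold falls were seen in 8 of 55 members (14.5%), beside 8.14% of all genes. An at least 2-fold rise was seen in 1 of 55 (1.82%), beside 1.97%. Among members of at least 100 mean counts, 3 of 40 were at least 2-fold lower and 0 at least 2-fold higher. Values of the 2 groups did not overlap for 36 of 55 members (65.5%), beside 67.6% of all genes. The median log2 fold change was -0.03 for the members and 0.01 for all genes, and the median size of change was 0.36 beside 0.35.

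**Figure D1:**
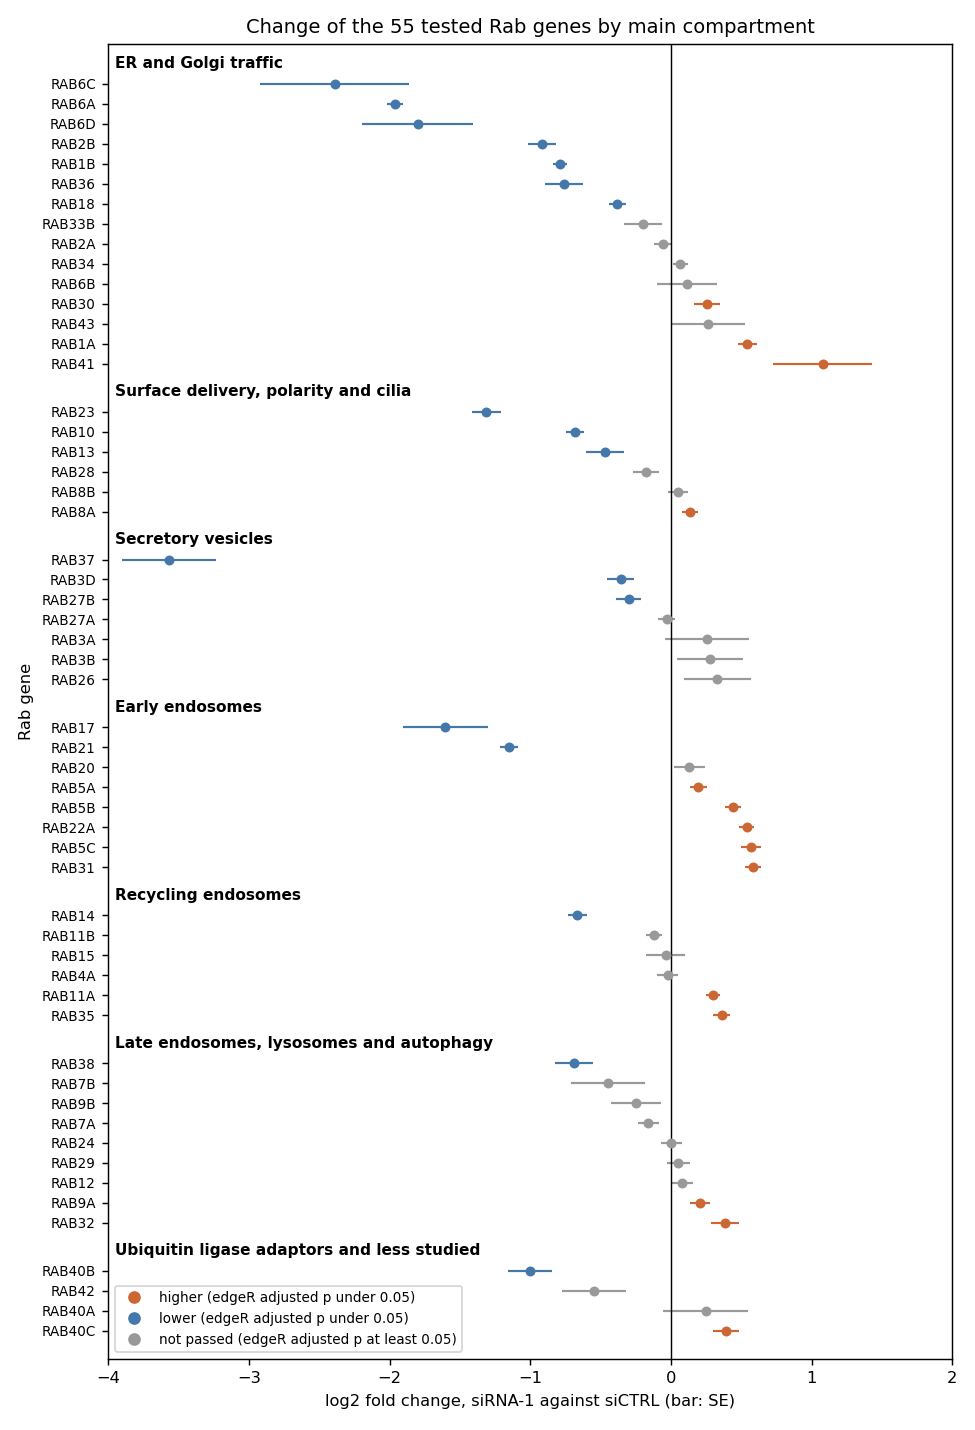
Each point is the log2 fold change of 1 tested Rab gene, siRNA-1 against siCTRL (3 libraries each), with its SE as a bar, sorted within its main compartment. The largest falls are RAB37, RAB6C and RAB6A. In early endosomes 5 of 8 genes are higher (62.5%, beside 31.5% of all genes).

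Rabs of the endoplasmic reticulum (ER) and Golgi, which drive the early secretory pathway, changed in both directions. Of 15 tested members, 7 fell (46.7%, beside 31.0% of all genes), 3 rose (20%, beside 31.5%) and 5 did not pass. RAB6A, which recruits motors and tethers to Golgi-derived vesicles and to retrograde carriers from endosomes, showed the fall with the smallest adjusted p of the family. Its level was 191.6, 198.5 and 191.7 CPM in siCTRL and 47.8, 49.6 and 51.6 CPM in siRNA-1. Every siRNA-1 library lay far below every control, with little spread in either group. The log2 fold change was -1.97 (SE 0.057), a 3.90-fold fall, with an edgeR adjusted p of 6.97e-10.

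RAB6A lies on the minus strand of chromosome 11 (chr11:73675638-73761137, GRCh38, GENCODE 29). RAB6C and RAB6D, close copies of RAB6A on chromosome 2, had few counts. RAB6C had 18, 20 and 17 counts in siCTRL and 0, 5 and 6 in siRNA-1, and RAB6D had 21, 29 and 22 counts against 9, 3 and 10. Both fell without overlap between groups, RAB6C by 2.39 on the log2 scale (adjusted p 0.0020) and RAB6D by 1.80 (adjusted p 0.00189). Of the 50-base stretches of RAB6C, 16.9% also occur in RAB6A, and 47.4% also occur in RAB6D. Reads of these copies may therefore come from one another or from RAB6A, and their values are uncertain. RAB6B, the paralogue known mainly from neurons, was between 2.38 and 3.44 CPM in all libraries, and its change did not pass (log2 fold change 0.12, SE 0.21, adjusted p 0.657).

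RAB1B and RAB1A, which tether ER-derived vesicles at the Golgi, moved in opposite directions. RAB1B was at 288.9, 276.4 and 296.6 CPM in siCTRL and 166.5, 168.9 and 163.3 CPM in siRNA-1. It was the Rab gene with the highest level per kb of exon in siCTRL (143 CPM per kb) and fell 1.73-fold (log2 -0.79, SE 0.052, adjusted p 1.49e-07). RAB1A was at 176.3, 158.9 and 191.8 CPM in siCTRL and rose to 262.0, 245.9 and 260.3 CPM in siRNA-1. Neither gene's groups overlapped, and the rise of RAB1A was 1.46-fold (log2 0.54, SE 0.068, adjusted p 2.7e-05). Exons of RAB1A overlap those of the opposite-strand gene CEP68 over 22.9% of their length, and CEP68 itself fell (log2 -0.71). An antisense transcript not in the count table covers 29.3% of RAB1B. No source used here states whether the counting used strand, so the reads of such pairs cannot be told apart.

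RAB2B and RAB2A act between the Golgi, the ER and autophagosomes. RAB2B was at 24.8, 23.1 and 20.4 CPM in siCTRL and 11.7, 11.9 and 12.6 CPM in siRNA-1. All siRNA-1 values were below all control values, and the fall was 1.89-fold (log2 -0.92, SE 0.10, adjusted p 9.51e-06). RAB2A, more abundant per length, was at 107.0 to 122.0 CPM in all 6 libraries and did not pass (log2 -0.06, SE 0.064, adjusted p 0.465). Without siCTRL 2 it did pass as lower (log2 -0.12, adjusted p 0.0239).

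RAB36, a Golgi Rab linked to the positioning of late endosomes, was at 9.58, 8.78 and 10.6 CPM in siCTRL and 5.45, 5.43 and 6.20 CPM in siRNA-1. The groups were apart, and the fall was 1.69-fold (adjusted p 4.23e-04). RAB18, which acts at the ER and on lipid droplets, fell 1.30-fold from 98.6, 103.6 and 106.5 CPM to 75.7, 77.9 and 83.2 CPM (adjusted p 1.71e-04). RAB30, a Golgi Rab, rose 1.19-fold with an adjusted p of 0.0300, and this call ended without siCTRL 1, siCTRL 3, siRNA-1 1 or siRNA-1 3 (adjusted p 0.0519 to 0.124), with the DESeq2 Wald test (0.0934) and among genes of at least 100 mean counts (0.0533). RAB41 had 12, 14 and 5 counts in siCTRL and 25, 21 and 25 in siRNA-1. It was the only member at least 2-fold higher (log2 1.08, SE 0.35, adjusted p 0.0184), at a very low level. That call ended without siCTRL 3, siRNA-1 1 or siRNA-1 3 (adjusted p 0.0569 to 0.0697). RAB34, RAB33B and RAB43 did not pass (adjusted p 0.274, 0.227 and 0.393), and the read-through gene ISY1-RAB43, at 0 counts, covers 79.3% of the exonic bases of RAB43.

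The summed level of the 17 ER and Golgi Rabs was 335.8, 323.2 and 345.1 CPM per kb in siCTRL and 263.4, 261.9 and 262.2 CPM per kb in siRNA-1. This sum was 1.28-fold lower in siRNA-1 without overlap (exact permutation test, two-sided, p 0.1, the smallest that 3 against 3 allows). Abundant genes weigh most in it. From siCTRL to siRNA-1, mean RAB1B went from 143 to 82.8 CPM per kb and RAB6A from 39.6 to 10.1. RAB1A went from 53.0 to 77.3 and RAB34 from 46.5 to 48.7.

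Of the 8 early endosome Rabs, all tested, 5 rose (62.5%, beside 31.5% of all genes), 2 fell (25.0%, beside 31.0%) and 1 did not pass. Their median log2 fold change was 0.32, beside 0.01 for all genes. Compartments were set with earlier results of these data known. RAB5A, RAB5B and RAB5C, which recruit the machinery for fusion of endocytic vesicles, were all higher. RAB5C was at 91.7, 79.5 and 90.8 CPM in siCTRL and 136.0, 131.2 and 121.7 CPM in siRNA-1, a 1.48-fold rise (log2 0.57, SE 0.070, adjusted p 2.15e-05). RAB5B was at 158.6, 145.3 and 157.6 CPM in siCTRL and 208.4, 215.0 and 203.6 CPM in siRNA-1, a 1.36-fold rise (adjusted p 2.71e-05). The change of RAB5A was the smallest of these 3, from 96.5, 104.5 and 111.8 CPM to 117.9, 119.5 and 120.4 CPM (log2 0.19, SE 0.062, adjusted p 0.0170). The RAB5A call ended without siCTRL 1, siRNA-1 2 or siRNA-1 3 (adjusted p 0.0512 to 0.120). A same-strand gene in the count table covers 28.8% of the exons of RAB5C, and it had 0 counts in all libraries.

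RAB22A and RAB31 (also named RAB22B) are close relatives of RAB5 that act in endosomal sorting and in traffic between endosomes and the Golgi. RAB22A was at 129.1, 127.0 and 133.3 CPM in siCTRL and 195.1, 189.5 and 181.3 CPM in siRNA-1. RAB31 was at 133.0, 133.4 and 136.2 CPM in siCTRL and 209.4, 204.5 and 187.9 CPM in siRNA-1. Neither gene's groups overlapped, and the rises were 1.45-fold (log2 0.54, SE 0.054, adjusted p 4.14e-06) and 1.49-fold (log2 0.58, SE 0.057, adjusted p 3.62e-06).

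RAB21 and RAB17 went the other way. RAB21, which binds integrins and drives their endocytosis, was at 75.5, 74.9 and 79.2 CPM in siCTRL and 34.2, 33.7 and 35.5 CPM in siRNA-1. The groups were far apart, and the fall was 2.22-fold (log2 -1.15, SE 0.062, adjusted p 3.05e-08). RAB17, an epithelial Rab of apical recycling and transcytosis, was low in all libraries, at 3.08, 3.34 and 2.75 CPM in siCTRL and 0.699, 0.729 and 1.57 CPM in siRNA-1. It fell 3.04-fold (log2 -1.61, SE 0.30, adjusted p 6.49e-04), with siRNA-1 3 the highest of its group. RAB20, linked to phagosome maturation, did not pass (log2 0.13, adjusted p 0.309). The summed early endosome level was 134.6, 130.1 and 140.8 CPM per kb in siCTRL and 183.5, 181.5 and 171.6 CPM per kb in siRNA-1, 1.32-fold higher without overlap (exact permutation p 0.1).

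**Figure D2:**
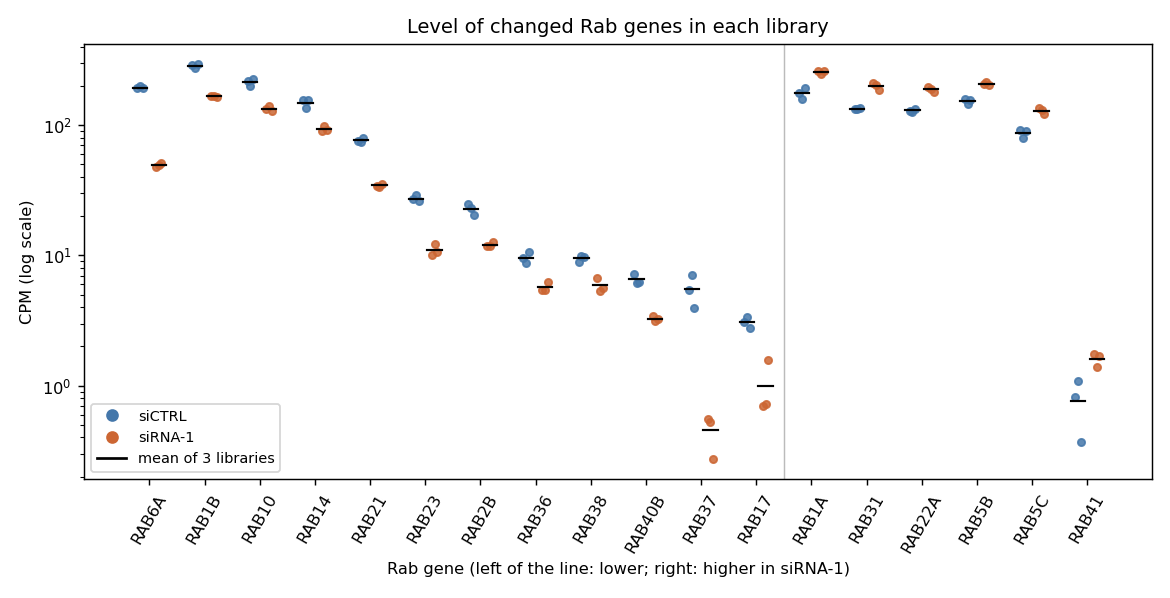
CPM on a log axis in each library for 18 changed Rab genes, with the mean of each group as a line. The 12 genes on the left are lower and the 6 on the right higher in siRNA-1, and in none of them do the groups overlap.

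Rabs of surface delivery, polarity and cilia were lower for 3 of 6 members, beside 31.0% of all genes. Another 1 was higher, beside 31.5% of all genes, and 2 did not pass. RAB23, a Rab of the primary cilium that restrains Hedgehog signalling, was at 26.9, 28.9 and 26.3 CPM in siCTRL and 10.1, 12.3 and 10.6 CPM in siRNA-1. All siRNA-1 values were lower than all controls, and the fall was 2.48-fold (log2 -1.31, SE 0.10, adjusted p 4.79e-07). BAG2, on the opposite strand, covers 57.7% of the exonic bases of RAB23 and rose from 70.9 ± 4.54 to 96.0 ± 1.55 CPM (SD, n = 3; log2 0.44), the opposite direction to RAB23.

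RAB10, which delivers cargo such as glucose transporters to the plasma membrane, was at 218.7, 198.9 and 227.8 CPM in siCTRL and 134.3, 139.8 and 128.2 CPM in siRNA-1. It fell 1.60-fold without overlap (log2 -0.68, SE 0.063, adjusted p 2.34e-06). RAB13, which acts at tight junctions and in cell migration, was at 23.2, 16.8 and 23.9 CPM in siCTRL and 17.1, 15.6 and 13.6 CPM in siRNA-1. Its groups overlapped at siCTRL 2 and siRNA-1 1. RAB13 passed as lower (log2 -0.47, SE 0.14, adjusted p 0.0107), but not without siRNA-1 3 (adjusted p 0.0576). A same-strand gene with at most 13 counts in any library covers 24.8% of its exons. RAB8A, a Rab of surface delivery and cilium growth, was higher by 0.14 on the log2 scale with an adjusted p of 0.0495. That call ended with DESeq2's size factors (0.0603) or its Wald test (0.112), with no filter (0.0507), with only genes of at least 100 mean counts (0.130), and without any library other than siCTRL 2 (0.0677 to 0.180). RAB8B and RAB28 did not pass (adjusted p 0.548 and 0.106), though RAB28 passed as lower without siCTRL 2 (adjusted p 0.00543).

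Secretory vesicle Rabs had 3 falls among 7 tested members (42.9%, beside 31.0% of all genes). None rose, beside 31.5% of all genes, and 4 did not pass. RAB37, a Rab of secretory granules, showed the largest fall of all tested members. It had 80, 91 and 53 counts in siCTRL and 8, 8 and 4 in siRNA-1, that is 5.47, 7.07 and 3.94 CPM against 0.559, 0.530 and 0.273 CPM. The groups were far apart although the controls varied, and the fall was 11.9-fold (log2 -3.57, SE 0.33, adjusted p 2.53e-06). RAB3D, a Rab of regulated exocytosis, fell 1.28-fold (adjusted p 0.00577). RAB27B, which docks exosomes and granules at the plasma membrane, was at 88.0, 76.1 and 102.5 CPM in siCTRL and 73.5, 70.4 and 72.5 CPM in siRNA-1. Its fall passed (log2 -0.30, adjusted p 0.0123), but not without siCTRL 3 (0.0574) or siRNA-1 2 (0.0564). RAB27A, its paralogue, lay within 44.6 to 46.2 CPM in all 6 libraries and did not pass (log2 -0.03, SE 0.061, adjusted p 0.695). RAB3A, RAB3B and RAB26, all below 5.6 CPM, did not pass (adjusted p 0.470, 0.315 and 0.248), though RAB3A passed as higher without siCTRL 2 (0.0416) and RAB3B without siCTRL 3 (0.0312).

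In recycling endosomes 1 of 6 tested members fell (16.7%, beside 31.0% of all genes) and 2 rose (33.3%, beside 31.5%). RAB14, which links the Golgi with endosomes and sorts surface proteins back to the plasma membrane, was at 155.7, 135.0 and 154.9 CPM in siCTRL and 90.1, 99.1 and 91.7 CPM in siRNA-1. It fell 1.59-fold with no overlap (log2 -0.67, SE 0.069, adjusted p 5.49e-06). RAB35, a Rab of fast recycling, rose 1.28-fold from 89.6, 82.2 and 92.0 CPM to 112.6, 116.0 and 110.5 CPM (adjusted p 2.47e-04). RAB11A, the classic marker of slow recycling, rose 1.23-fold from 117.7, 115.5 and 116.2 CPM to 146.0, 143.9 and 140.2 CPM (adjusted p 3.07e-04). RAB11B did not pass (log2 -0.12, SE 0.058, adjusted p 0.0871), although it did as lower without siCTRL 1 (0.0470), without siCTRL 2 (0.0447) and among genes of at least 100 mean counts (0.0281). RAB4A, of fast recycling, and RAB15 did not pass (adjusted p 0.788 and 0.832).

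Among Rabs of late endosomes, lysosomes and autophagy 2 of 9 tested members were higher (22.2%, beside 31.5% of all genes). Another 1 was lower (11.1%, beside 31.0%) and 6 did not pass. RAB7A, which directs late endosomes to lysosomes, had the second highest level per kb in siCTRL (88.2 CPM per kb). It was at 250.4, 208.2 and 260.4 CPM in siCTRL and 213.3, 220.3 and 209.2 CPM in siRNA-1, and siCTRL 2 lay among or below the siRNA-1 values. It did not pass (log2 -0.16, SE 0.076, adjusted p 0.0821), while without siCTRL 2 it passed as lower (log2 -0.27, adjusted p 1.03e-07) and among genes of at least 100 mean counts it passed as well (0.0363).

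RAB32 and RAB38 are paralogues that deliver cargo to melanosomes and other lysosome-related organelles. RAB32 was at 87.9, 65.5 and 86.6 CPM in siCTRL and 113.3, 102.2 and 98.3 CPM in siRNA-1. RAB38 was at 8.96, 9.94 and 9.66 CPM in siCTRL and 6.71, 5.37 and 5.66 CPM in siRNA-1. RAB32 rose 1.31-fold (log2 0.39, SE 0.10, adjusted p 0.00538), with siCTRL 2 the lowest value, and RAB38 fell 1.61-fold (log2 -0.69, SE 0.14, adjusted p 8.88e-04), both without overlap. RAB9A, of transport from late endosomes to the Golgi, rose 1.16-fold (adjusted p 0.0220), a call that ended without siCTRL 1, siRNA-1 2 or siRNA-1 3 (0.0508 to 0.0767) and with the DESeq2 Wald test (0.0775). RAB7B, RAB9B, RAB12, RAB24 and RAB29 did not pass (adjusted p 0.161, 0.246, 0.383, 0.983 and 0.579). For RAB24, 44.8% of the exonic bases are shared with the same-strand gene MXD3.

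The RAB40 genes encode adaptors of a ubiquitin ligase. RAB40B was at 7.25, 6.13 and 6.24 CPM in siCTRL and 3.42, 3.11 and 3.27 CPM in siRNA-1, a 2.00-fold fall (log2 -1.003, SE 0.16, adjusted p 1.7e-04). RAB40C rose 1.31-fold from 17.04, 18.2 and 19.8 CPM to 25.9, 23.6 and 22.6 CPM (log2 0.39, SE 0.094, adjusted p 0.00325). The groups did not overlap for either gene. RAB40A did not pass (adjusted p 0.493), and RAB42, a little-studied Rab, did not pass either (log2 -0.55, adjusted p 0.0521), passing with DESeq2's size factors (0.0484) and without siCTRL 1 (0.0163).

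The 8 untested members, RAB3C, RAB4B, RAB19, RAB25, RAB33A, RAB39A, RAB39B and RAB44, each had fewer than 20 counts over all libraries. RAB3C had 0 counts throughout. The same-strand read-through genes MIA-RAB4B (at most 4 counts in any library) and RAB4B-EGLN2 (0 counts) overlap RAB4B. They cover 25.7% and 27.4% of its exonic bases, so the level of RAB4B is uncertain. RAB25, the epithelial relative of RAB11, had at most 1 count in any library. RAB33A had 6, 5 and 3 counts in siCTRL and 1, 0 and 0 in siRNA-1, and RAB39A had 4, 5 and 4 counts against 1, 1 and 0, below the depth at which a test was made.

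**Figure D3:**
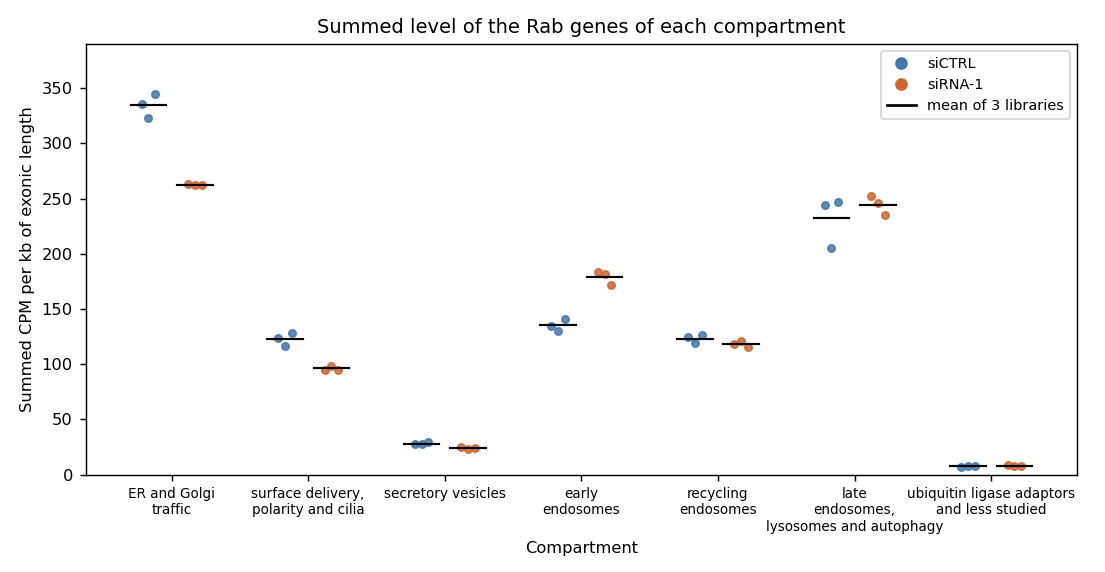
Summed CPM per kb of exonic length of the Rab genes of each compartment in each library, with group means as lines. ER and Golgi, surface and secretory sums are lower and the early endosome sum is higher in siRNA-1, without overlap, while late endosome and recycling sums overlap.

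Summed over all 63 members the family's level was 983.5 ± 49.3 CPM per kb in siCTRL and 932.3 ± 18.1 CPM per kb in siRNA-1 (SD, n = 3). The groups overlapped, with siCTRL 2 (928.7) below siRNA-1 1 (945.2) and siRNA-1 2 (940.2) (exact permutation p 0.3). The sums of surface Rabs (122.7 ± 5.72 against 96.2 ± 2.16 CPM per kb) and of secretory Rabs (27.9 ± 1.14 against 24.0 ± 0.553) were lower in siRNA-1 without overlap, each at the smallest exact permutation p of 0.1. Late endosome sums (232.3 ± 23.7 against 244.4 ± 8.53, exact permutation p 0.6) and recycling sums (123.2 ± 3.94 against 118.6 ± 2.63, exact permutation p 0.2) overlapped between groups. In this design no sum could reach p 0.05. Abundant genes weigh most in these sums. In the surface sum, mean RAB10 went from 59.2 CPM per kb in siCTRL to 36.9 in siRNA-1. The means of RAB13, RAB23 and RAB28 were also lower, and those of RAB8A and RAB8B were slightly higher.

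Paralogues were compared by the log2 ratio of their levels within each library. Of 26 pairs from 15 paralogue groups, 16 had ratios that did not overlap between groups. Each of these was at the smallest exact permutation p of 0.1 (0.163 after Benjamini-Hochberg adjustment over the pairs). Levels of single genes did not overlap for 67.6% of all genes tested. No such share was computed for ratios of other gene pairs, so the count of 16 is no result about paralogues. Where both paralogues changed, which held for 11 pairs, 8 pairs moved in the same direction and 3 in opposite directions. Pairs of one group share genes and are not independent. The same-direction pairs were every pair of RAB5A, RAB5B and RAB5C, every pair of RAB6A, RAB6C and RAB6D, RAB10 with RAB13, and RAB22A with RAB31. Those of RAB6A, RAB6C and RAB6D may also share reads, so the 8 do not show that paralogues mostly move together. The opposed pairs were RAB1A with RAB1B, RAB32 with RAB38 and RAB40B with RAB40C.

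The RAB1 ratio changed sign. RAB1A over RAB1B was -0.71, -0.80 and -0.63 on the log2 scale in siCTRL and 0.65, 0.54 and 0.67 in siRNA-1, a shift of 1.34. Per length, RAB1A made up 27.0% ± 1.16 of the pair's level in siCTRL and 48.3% ± 1.23 in siRNA-1 (SD, n = 3). RAB32 over RAB38 rose by 1.08, and RAB40B over RAB40C fell by 1.36. RAB6A over RAB6B fell by 2.06, yet RAB6A still made up 95.6% ± 0.833 of that pair per length in siRNA-1, against 98.9% ± 0.0739 in siCTRL.

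RAB26 over RAB37, both Rabs of secretory granules, rose by 3.56, from RAB26 at 39.9% ± 10.1 of the pair per length to 90.6% ± 3.65. The RAB2A over RAB2B ratio rose by 0.85 and RAB11A over RAB11B by 0.42. Within RAB5, RAB5A over RAB5B fell by 0.25 and RAB5A over RAB5C fell by 0.37, both without overlap. RAB22A over RAB31 was nearly level, at -0.05 ± 0.020 in siCTRL and -0.09 ± 0.032 in siRNA-1 (exact permutation p 0.2).

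**Figure D4:**
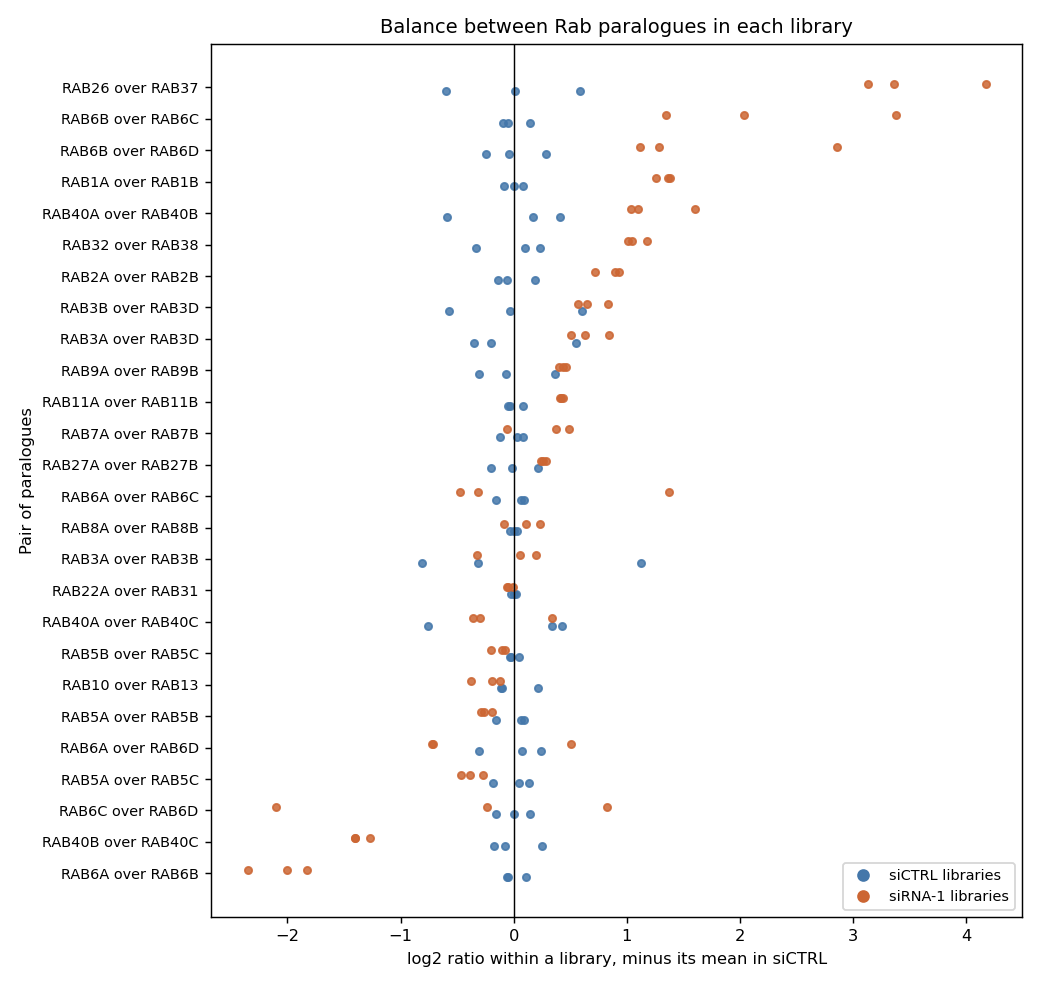
Log2 ratio of each pair of paralogues in each library, minus the pair's mean in siCTRL, so that the controls scatter around 0. RAB26 over RAB37 moved furthest up and RAB6A over RAB6B furthest down, while RAB22A over RAB31 stayed near 0.

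The 3′ untranslated regions (UTRs) of the members were searched on the transcript strand for the 7-base motif GCTCACT. This motif had been picked from the falling genes of these same data, so its share among fallen members is a description and no independent evidence. It occurred in 23.8% of the 12316 tested genes with an annotated 3′ UTR of at least 50 bases, in 34.9% of those lower, 15.6% of those higher and 21.6% of those that did not pass. Among Rab genes it occurred in 13 of 55, namely in 8 of 18 lower, 2 of 14 higher and 3 of 23 that did not pass. UTR length differed too, with a median of 2347 bases in lower and 1790 bases in higher members. The sites of 4 members whose fall is described above are shown because they are the sequence these members share, with the motif in capitals and 10 bases on each side, from the GENCODE 29 transcripts, 5′ to 3′:
RAB6A: ttcttcagaaGCTCACTgctttggccc
RAB23: accttttgctGCTCACTgagaacccag
RAB1B: agcacatctgGCTCACTccccactccg
RAB37: tgcaatctccGCTCACTacaacctcca

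The RAB6A site lies at chr11:73677860-73677866 (GRCh38, minus strand), with its first base 32 bases after the stop codon. The RAB23 site lies at chr6:57189437-57189443 (minus strand) and the RAB1B site at chr11:66277071-66277077 (plus strand). The RAB37 site lies at chr17:74746293-74746299 (plus strand). The letters around the motif differ between these 4 sites. At least 2-fold lower members without the motif were RAB6C, RAB6D, RAB17 and RAB40B, and RAB10 and RAB14 also lacked it. A match shows only that the letters are present. Whether the site played a part in any fall was not tested.

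Genes that load, switch and read Rabs also changed in both directions. Of 151 such genes, 141 were tested, and 45 were higher (31.9%), 52 lower (36.9%) and 44 did not pass. The share changed, 68.8%, lies near the 62.5% of all genes, of which 31.5% were higher and 31.0% lower. Among the 8 genes of prenylation and membrane extraction, 3 rose and 2 fell. RABGGTA, the alpha subunit of the enzyme that attaches the lipid tail, rose 1.75-fold from 19.2, 18.0 and 16.3 CPM to 29.97, 31.6 and 32.1 CPM (adjusted p 7.99e-06). RABGGTB, the beta subunit, rose 1.17-fold (adjusted p 0.00739). The escort proteins CHML (log2 -0.46) and CHM (log2 -0.18) fell, and GDI2, which extracts inactive Rabs from membranes, did not pass (adjusted p 0.134).

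Of 51 tested exchange factors 19 rose (37.3%), 17 fell (33.3%) and 15 did not pass, beside 31.5% and 31.0% of all genes. SH3BP5L, a GEF of RAB11, rose 1.81-fold (adjusted p 2.05e-07), and DENND6A, a GEF of RAB14, rose 2.11-fold (adjusted p 2.63e-07). MADD, a GEF of RAB3 and RAB27, rose 1.63-fold (adjusted p 3.47e-07). The largest rise was HPS1, part of the RAB32 and RAB38 GEF, from 2.74, 2.10 and 2.83 CPM to 5.52, 5.50 and 7.09 CPM (2.35-fold), while its partner HPS4 fell 1.24-fold. DENND2A, a GEF of RAB9, showed the largest fall (2.27-fold, adjusted p 6.4e-06). RIC1, which forms the RAB6 GEF with RGP1, rose 1.96-fold from 17.9, 17.9 and 18.1 CPM to 34.7, 36.0 and 35.0 CPM, and RGP1 did not pass (adjusted p 0.687). HPS4, RIC1 and RGP1 were chosen after their values were seen, as partners of genes described here.

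Of 35 tested GAPs 11 rose (31.4%), 14 fell (40.0%) and 10 did not pass, beside 31.5% higher and 31.0% lower of all genes. TBC1D16, a GAP of RAB4, rose 1.77-fold (adjusted p 2.7e-07), and GRTP1 showed the largest rise (2.11-fold, adjusted p 0.00312). EVI5, a GAP linked to RAB11, fell 1.76-fold (adjusted p 3.32e-07), TBC1D13, a GAP of RAB35, fell 1.87-fold (adjusted p 3.61e-07), and TBC1D19 showed the largest fall (2.71-fold).

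Of 44 tested effectors 12 rose (27.3%), 19 fell (43.2%) and 13 did not pass, beside 31.5% higher and 31.0% lower of all genes. GOLGA2 (GM130), a Golgi tether that binds RAB1, rose 1.87-fold from 111.3, 100.1 and 105.1 CPM to 197.5, 197.3 and 197.6 CPM (adjusted p 9.11e-08). VPS39, a subunit of the HOPS tether of late endosomes that works with RAB7, fell 2.43-fold (adjusted p 4.29e-08). MLPH (melanophilin), which links RAB27A to myosin, fell 1.85-fold (adjusted p 5.63e-08), and SYTL1, another RAB27 effector, showed the largest fall (2.84-fold).

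The RAB5 effectors split, although all RAB5 genes rose. EEA1, the fusion tether, rose 1.19-fold, RABEP1 rose 1.30-fold and RABEP2 rose 1.60-fold. RBSN (rabenosyn-5) fell 1.99-fold from 63.1, 68.2 and 59.4 CPM to 29.8, 31.7 and 34.3 CPM (adjusted p 5.97e-07). APPL2, a marker of an early endosome subset, fell 1.86-fold (adjusted p 4.16e-07), and APPL1 did not pass (adjusted p 0.608). Among the RAB11 family interacting proteins RAB11FIP5, RAB11FIP2 and RAB11FIP3 fell (log2 -0.63, -0.65 and -0.22), RAB11FIP1 did not pass and RAB11FIP4 was not tested. These 2 sets were chosen after their values were seen. The Rab kinases LRRK1 and LRRK2 and the Rab phosphatase PPM1H did not pass (adjusted p 0.712, 0.428 and 0.186).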

How the data were processed

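Raw read counts per Ensembl gene for 6 libraries of total RNA were deposited by the authors. Per the labels' protocols a NEBNext Ultra kit was used, and per the submitters' processing notes Trimmomatic, STAR, HTSeq and kallisto were used with hg38. No source used here gives the strand setting, annotation release, versions or filters.

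Members were found by symbol, with positions and exonic lengths from GENCODE 29 (GRCh38). Members, compartments and lists were chosen with earlier results of these data known. Counts were fitted on the whole table in R 4.3.3 with edgeR 4.0.16 (filterByExpr, at least 10 counts and 15 in total, TMM scaling with factors 0.972 to 1.02, quasi-likelihood F test, two-sided, Benjamini-Hochberg adjustment over the 12440 genes tested, threshold 0.05). CPM used the scaled library sizes. Paralogue ratios used log2 CPM with a prior count of 2, and these and summed levels were tested by exact permutation over the 20 arrangements of 3 against 3 libraries. The procedure was tested on simulated counts. Members changed at least 1.5-fold, and groups of paralogues with opposed changes, were given sample by sample. Of each other list the 3 changed genes with the smallest adjusted p and the largest rise and fall (mean log2 CPM of at least 1) were named, apart from items that are not reported here.

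Alternatives were DESeq2 1.42.0 size factors and Wald test, limma 3.58.1 voom, other filters and scaling, a replicate block, a threshold of 0.01 and leaving out each library.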

Additional observations from a re-analysis of the deposited data

How the results depend on the processing

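The count of changed Rab members, 32, was 25 to 33 under the other tools, filters, scalings and threshold. With 1 library left out it was 26 (without siRNA-1 3) to 37 (without siCTRL 2). Over all genes, 6944 of 12605 passed without siRNA-1 3 and 8635 of 12562 without siCTRL 2. The call was reversed in 0 of the 55 tested members. Members that did not pass could change sign, as did RAB29 (log2 0.0528 in the main analysis, -0.0413 without siCTRL 2). The members' median log2 fold change, -0.0291, was 0.0079 with no scaling, -0.0576 with no filter and -0.0637 among genes of at least 100 mean counts, so its sign depends on scaling. At least 2-fold changes, 9 in the main analysis, numbered 3 among genes of at least 100 mean counts, where fewer members were tested (40), and 7 to 9 with a library left out. Replicate numbers did not pair the samples, since same-numbered deviations correlated at 0.0669, -0.0782 and -0.0571. With the replicate number as a block, 31 members and 7535 genes changed, and RAB8A was lost. Depth limits the members below about 20 counts in total, RAB41, RAB6C, RAB6D and RAB37 in siRNA-1.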
